A study of Mus musculus with 3 samples.

Results

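The genes described here are 10 genes of elastic fibers and microfibrils, measured in the healing mouse femur: *Eln*, *Fbn1*, *Fbn2*, *Mfap2*, *Mfap4*, *Mfap5*, *Fbln1*, *Fbln2*, *Fbln5*, and *Emilin1*. They were chosen by name among the 32285 genes counted, not by a rule on their values but with earlier results of these data known. All 10 were found. The cells came from fracture callus of C57BL/6 mice without treatment at day 7, day 10, and day 14 after femoral fracture, sorted as live cells negative for CD31, CD45, and TER119. Callus was crushed and digested with collagenase, and each day gave 1 droplet library, so no difference here could be set against the variation between animals and no p-value was computed. The labels give neither the age nor the number of mice behind each library.

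Elastic fibers let a tissue stretch and recoil. They have a core of crosslinked elastin and a mantle of microfibrils, which are long beaded polymers of fibrillin that carry small glycoproteins, and fibulins and lysyl oxidases help to place and crosslink elastin on them. Microfibrils also occur without elastin, hold latent TGF-beta and BMPs in the matrix, and are known in perichondrium, periosteum, tendon, and vessel walls.

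The members were read in cells without a UMI of *Ptprc*, the gene of CD45, that were high for 1 of 7 genes. A UMI is a molecular tag that marks 1 captured mRNA molecule. The 7 genes were *Postn* (a matrix protein of periosteum), *Igf1* (a growth factor), *Acta2* (smooth muscle actin), *Chodl* (chondrolectin, used here among the tendon markers), *Cnmd* (chondromodulin of cartilage), *Ifitm5* (an osteoblast membrane protein), and *Rgs5* (a pericyte marker). A cell counted as high with at least 3 UMIs of the gene, at least 2 per 10000, and a level at or above the 95th percentile of the day 10 and day 14 cells. These are ranges of expression, not cell types, and 156 cells at day 10 and 227 at day 14 were high for at least 2 of the genes. The groups held 377 and 437 *Postn*-high cells at day 10 and day 14, 254 and 559 *Igf1*-high, 369 and 442 *Acta2*-high, 37 and 10 *Chodl*-high, 568 and 246 *Cnmd*-high, 184 and 473 *Ifitm5*-high, and 82 and 222 *Rgs5*-high cells. Of the *Rgs5*-high cells, 52 at day 10 and 100 at day 14 were also *Acta2*-high. CPM is UMIs per 1000000 UMIs of the group. At day 10, marker lists that include the gene used summed to 9793 CPM for pericytes in *Rgs5*-high cells (102 CPM in *Postn*-high), 6179 CPM for contractile cells in *Acta2*-high cells (24.1 CPM in *Cnmd*-high), 5372 CPM for tendon in *Chodl*-high cells (547 CPM in *Postn*-high), 60712 CPM for chondrocytes in *Cnmd*-high cells, and 67280 CPM for osteoblasts in *Ifitm5*-high cells.

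The libraries differed. The limits on genes, mitochondrial, and hemoglobin UMIs kept 7017, 6593, and 9853 cells in the order of the days, of which 447 (6.37%), 6587 (99.9%), and 9680 (98.2%) had no *Ptprc* UMI. Those of day 7 had a median of 6763 UMIs, against 17372 at day 10 and 15838 at day 14. They also held other blood cells, since the 8 hematopoietic markers summed to 22289 CPM in them, and 136 of the 447 had over 1% of their UMIs in that list. Day 7 gave 0 to 15 cells per group, fewer than the 20 set as a minimum, so its levels are printed without ratios. Libraries shared 29 to 42 barcodes in pairs.

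Promoters are shown for 4 members, taken as pairs that differed in opposite directions. These are *Fbn1* against *Emilin1* in *Rgs5*-high cells, and *Fbln2* against *Fbln5* between *Acta2*-high and *Igf1*-high cells. Opposite directions also occurred elsewhere, such as *Fbn1* against *Emilin1* in *Cnmd*-high cells and *Fbln2* against *Fbln5* between *Igf1*-high and *Postn*-high cells. RefSeq (GRCm38.p6) held promoter sequence for 6 of the 10 members. Each line is 300 bases, from 250 before to 50 after the annotated start, 5′ to 3′ on the strand of the gene. Capitals mark a GC box (GGGCGG) or a CCAAT box (CCAAT), on either strand.
*Fbn1* (chr2:125506389-125506688, minus strand): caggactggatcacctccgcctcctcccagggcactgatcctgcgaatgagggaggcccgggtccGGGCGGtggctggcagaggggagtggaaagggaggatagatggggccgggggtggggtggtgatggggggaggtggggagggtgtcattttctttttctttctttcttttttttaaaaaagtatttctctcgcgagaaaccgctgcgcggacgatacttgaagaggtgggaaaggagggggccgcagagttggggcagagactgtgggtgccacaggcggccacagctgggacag
*Emilin1* (chr5:30913536-30913835, plus strand): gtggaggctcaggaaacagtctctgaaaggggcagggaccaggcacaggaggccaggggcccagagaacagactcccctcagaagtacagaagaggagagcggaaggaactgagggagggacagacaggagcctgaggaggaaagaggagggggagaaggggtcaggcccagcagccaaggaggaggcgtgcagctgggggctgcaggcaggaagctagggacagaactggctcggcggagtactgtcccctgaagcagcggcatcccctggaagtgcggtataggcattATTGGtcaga
*Fbln2* (chr6:91212514-91212813, plus strand): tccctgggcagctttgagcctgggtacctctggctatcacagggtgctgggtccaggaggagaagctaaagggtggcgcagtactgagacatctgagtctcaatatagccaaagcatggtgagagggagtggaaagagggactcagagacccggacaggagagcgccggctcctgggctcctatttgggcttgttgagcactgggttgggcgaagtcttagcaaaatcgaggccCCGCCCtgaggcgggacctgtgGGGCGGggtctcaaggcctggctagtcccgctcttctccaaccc
*Fbln5* (chr12:101819070-101819369, minus strand): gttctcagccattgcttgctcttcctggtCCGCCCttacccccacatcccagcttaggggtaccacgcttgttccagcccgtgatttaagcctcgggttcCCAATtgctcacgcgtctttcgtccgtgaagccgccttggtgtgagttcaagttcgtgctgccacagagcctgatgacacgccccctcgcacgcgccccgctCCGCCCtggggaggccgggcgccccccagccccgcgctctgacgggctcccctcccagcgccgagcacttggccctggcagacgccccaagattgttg
The *Fbn1* window had 1 GC box, *Emilin1* 1 CCAAT box, *Fbln2* 2 GC boxes, and this start of *Fbln5*, one of a pair in the table, 2 GC boxes and 1 CCAAT box. A GC box was present in 35.7% and a CCAAT box in 37.4% of 32851 promoters of the same length, so both are common letters in such windows. TATA boxes (TATAAA, in 13.6% of promoters) and AP-1 sites (TGANTCA, in 7.81%) were absent from all 4. The members outside those 6 are *Eln*, *Fbn2*, *Mfap4*, and *Mfap5*.

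**Figure D1:**
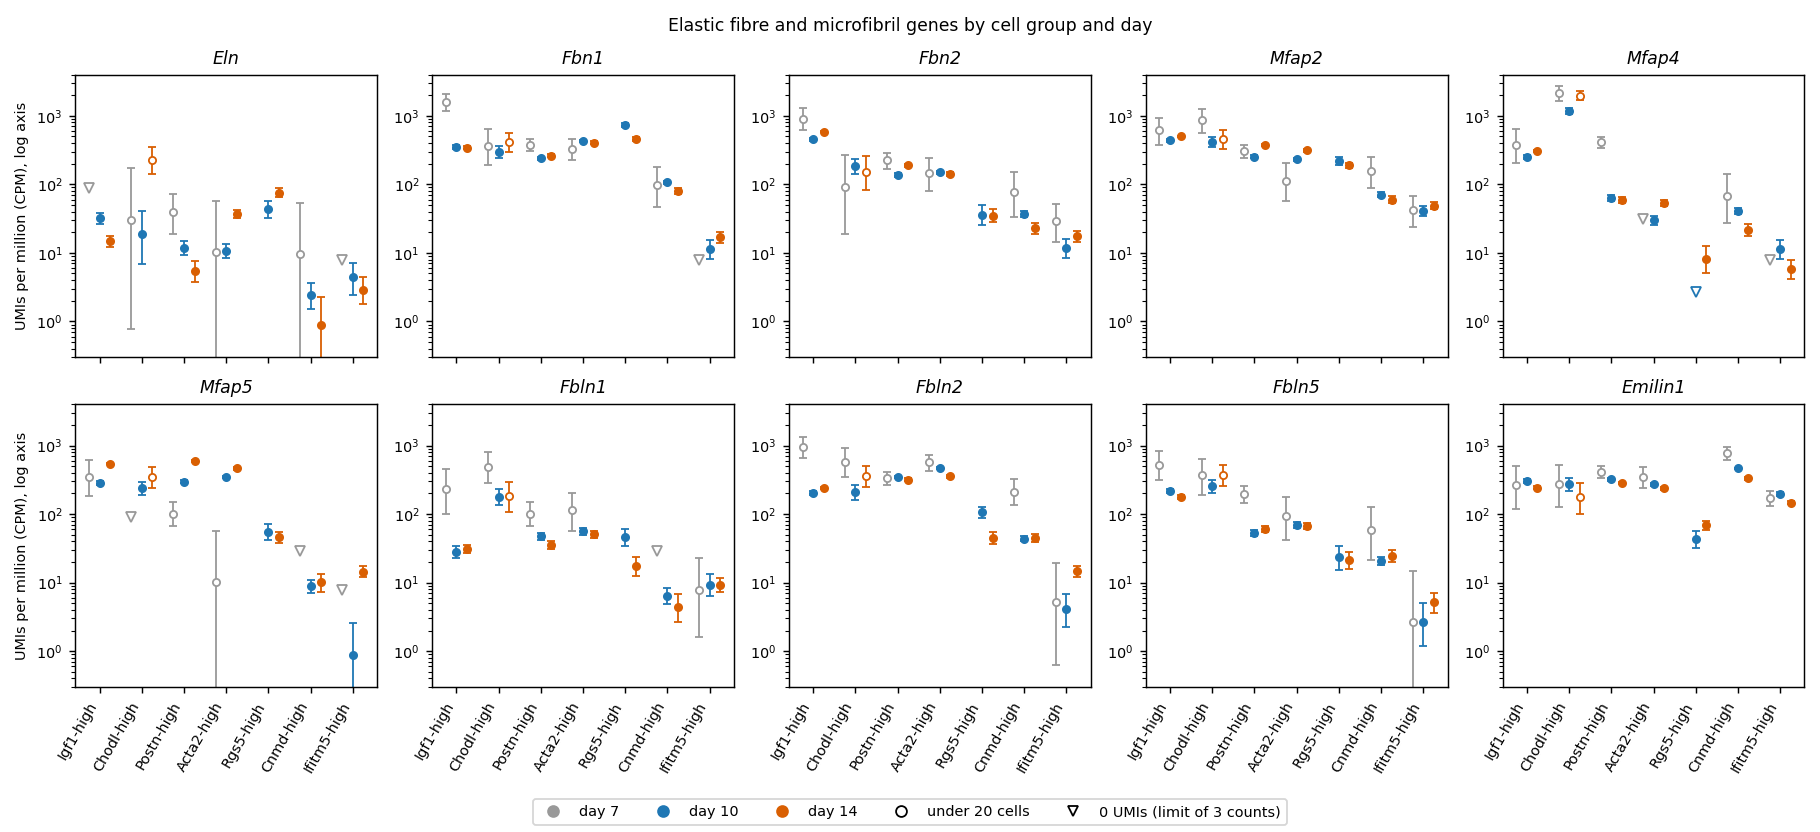
Level of each gene in CPM (log axis) in the 7 groups of *Ptprc* = 0 cells at day 7, day 10, and day 14. Points are the summed UMIs of 1 library, bars are exact Poisson 95% intervals (counting error only), open circles are groups under 20 cells, and open triangles stand for 0 UMIs at the limit that 3 counts allow. *Mfap4* spans from 0 UMIs in *Rgs5*-high cells to 1162 CPM in *Chodl*-high cells of day 10, while *Emilin1* is lowest in *Rgs5*-high cells.

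*Eln*, which encodes elastin itself, was the sparsest member. It lies on chromosome 5 (GRCm38 134702593 to 134747323, minus strand). In all *Ptprc* = 0 cells it measured 17.9 CPM (17.1 to 18.7) at day 10 and 11.8 CPM (11.2 to 12.3) at day 14, the parentheses giving the 95% interval of counting error, as they do throughout. It was highest in *Rgs5*-high cells on both days, 43.4 CPM (32.0 to 57.6) and 76.0 CPM (65.4 to 87.8). *Igf1*-high cells followed at day 10 with 31.9 CPM (26.2 to 38.5), an interval that overlapped that of the *Rgs5*-high cells, and measured 14.8 CPM (12.2 to 17.8) at day 14. In *Acta2*-high cells the order between the days was the reverse, 10.8 CPM (8.37 to 13.7) and then 36.7 CPM (32.2 to 41.6). Cartilage and bone groups were at the bottom, with 2.42 and 0.879 CPM in *Cnmd*-high cells and 4.38 and 2.90 CPM in *Ifitm5*-high cells. The *Cnmd*-high value of day 14 rests on 4 UMIs. Among the 10 *Chodl*-high cells of day 14, 21 UMIs gave 229 CPM, and 2 of those cells had at least 3 UMIs of it and 2 per 10000. *Eln* of the 13 *Postn*-high cells of day 7 was 39.1 CPM (18.7 to 71.9), from 10 UMIs, of which 1 cell held 8.

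The fibrillins form the backbone of the microfibril. *Fbn1* (chromosome 2, 125300594 to 125507993, minus strand), the main fibrillin of adult tissue, was highest in *Rgs5*-high cells, with 737 CPM (687 to 789) at day 10 and 462 CPM (435 to 489) at day 14. *Acta2*-high cells came next with 432 and 407 CPM, then *Igf1*-high cells with 349 and 344 CPM and *Postn*-high cells with 241 and 263 CPM. The *Chodl*-high cells of day 10, at 301 CPM (243 to 368), overlapped the *Igf1*-high cells. *Cnmd*-high cells held 107 and 79.5 CPM and *Ifitm5*-high cells 11.4 and 16.8 CPM. The highest group stood 64.6-fold over the lowest at day 10 and 27.4-fold at day 14. The 15 *Ifitm5*-high cells of day 7 had 0 *Fbn1* UMIs, which allows up to 7.90 CPM.

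*Fbn2*, on chromosome 18, is the fibrillin best known from the embryo. Its order differed from that of *Fbn1*. *Igf1*-high cells led with 457 CPM (434 to 480.0) at day 10 and 589 CPM (572 to 607) at day 14, and no other group with at least 20 cells came within 2-fold of them on either day. *Postn*-high cells had 136 and 190.5 CPM and *Acta2*-high cells 149 and 140.0 CPM. *Rgs5*-high cells, the top group for *Fbn1*, held 36.2 and 34.9 CPM of *Fbn2*, and *Cnmd*-high cells 36.7 and 22.9 CPM. With the cells high for both genes left out, the *Igf1*-high cells exceeded the *Postn*-high cells in *Fbn2* by a log2 ratio of 1.79 (1.66 to 1.91) and 1.79 (1.69 to 1.89), and in *Fbn1* by 0.54 and 0.41.

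The microfibril-associated proteins MFAP2 and MFAP5 (also called MAGP1 and MAGP2) are small paralogs that bind fibrillin. *Mfap2* (chromosome 4, 141010418 to 141015984, plus strand) was present in every group. Outside the cartilage and bone groups it ranged at day 10 from 217 CPM in *Rgs5*-high cells to 440.1 CPM in *Igf1*-high cells, with 252 CPM in *Postn*-high cells between them. At day 14 the same groups held 189, 499.5, and 379 CPM. *Cnmd*-high cells had 70.8 and 59.5 CPM and *Ifitm5*-high cells 40.9 and 49.1 CPM.

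*Mfap5* (chromosome 6, 122505845 to 122529290, plus strand) had steeper contrasts. It was highest at day 10 in *Acta2*-high cells, 348 CPM (333 to 362), and at day 14 in *Postn*-high cells, 598 CPM (579 to 617), where it had 296 CPM at day 10. *Igf1*-high cells had 287 and 546 CPM. *Rgs5*-high cells had only 55.2 and 46.0 CPM, and *Cnmd*-high cells 8.83 and 10.1 CPM. In *Ifitm5*-high cells *Mfap5* was nearly absent at day 10, 3 UMIs or 0.877 CPM (0.181 to 2.56), and 14.5 CPM (11.9 to 17.4) at day 14.

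*Mfap4* (chromosome 11, 61485431 to 61488900, plus strand) encodes a fibrinogen-domain glycoprotein that binds elastin and fibrillin. It marked the *Chodl*-high cells, with 1162 CPM (1047 to 1288) at day 10. The 2 *Chodl*-high cells of day 7 held 2143 CPM (1670.4 to 2707) and the 10 of day 14 1965 CPM (1688 to 2274), so the high level was seen in all 3 libraries. At day 7, 1 of the 2 cells, which was also *Postn*-high, held 50 of the 70 UMIs, and the other alone gave 1425 CPM (871 to 2201). Next were the *Igf1*-high cells, at 248 and 308 CPM. *Postn*-high cells had 63.4 and 58.2 CPM and *Acta2*-high cells 29.8 and 53.7 CPM. In *Rgs5*-high cells 0 UMIs were counted at day 10, which allows up to 2.72 CPM, and 20 UMIs at day 14, 8.21 CPM (5.02 to 12.7).

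Fibulins link elastin, fibrillin, and other matrix proteins. *Fbln1* (chromosome 15, 85205949 to 85286535, plus strand), a fibulin of basement membranes and elastic fibers, was highest in *Chodl*-high cells at day 10, 177 CPM (134 to 230.3). The other groups had far less, from 6.41 CPM in *Cnmd*-high cells to 55.9 CPM in *Acta2*-high cells at day 10. *Fbln2* (chromosome 6, 91212455 to 91272540, plus strand), which binds fibrillin and elastin precursors, was highest at day 10 in *Acta2*-high cells, 468 CPM (451 to 485) and then 354 CPM (339.8 to 369) at day 14. *Postn*-high cells followed with 349.9 and 317 CPM, and *Igf1*-high cells with 204 and 241 CPM. *Ifitm5*-high cells had 4.09 CPM at day 10, the lowest of the groups, and 14.7 CPM at day 14.

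*Fbln5* (chromosome 12, 101746565 to 101819055, minus strand), needed for elastic fiber assembly, ran the other way between *Igf1*-high cells and the *Acta2*-high and *Postn*-high cells. *Chodl*-high cells had 257 CPM (204 to 319) at day 10 and overlapped the *Igf1*-high cells at 219 CPM (204 to 236), which held 177 CPM at day 14. *Postn*-high cells were at 53.2 and 59.8 CPM and *Acta2*-high cells at 69.4 and 66.7 CPM. Between *Acta2*-high and *Igf1*-high cells, shared cells left out, the log2 ratio was 1.22 (1.10 to 1.34) for *Fbln2* and -1.70 (-1.87 to -1.52) for *Fbln5* at day 10, and 0.57 (0.48 to 0.66) and -1.46 (-1.62 to -1.30) at day 14. The paralogs thus differed in opposite directions between the same cells on both days.

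*Emilin1* (chromosome 5, 30913402 to 30921277, plus strand) encodes a glycoprotein at the interface of elastin and microfibrils. It was the broadest member, with a UMI in 90.7% of the *Ptprc* = 0 cells at day 10 and 79.7% at day 14. *Cnmd*-high cells had the most at day 10, 463 CPM (449.6 to 477), and at day 14, 333 CPM (316 to 350.1), and the 7 such cells of day 7 held 776 CPM. *Postn*-high, *Igf1*-high, and *Acta2*-high cells lay between 274 and 321 CPM at day 10 and between 238 and 284 CPM at day 14. *Ifitm5*-high cells had 197 and 146 CPM. *Rgs5*-high cells had the least, 43.4 CPM (32.0 to 57.6) and 68.6 CPM (58.6 to 79.8), and were the group with the most *Fbn1*.

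Free RNA in droplets can give UMIs to cells that do not express a gene, so the members were read in the 6570 *Ptprc*-positive cells of day 7, at a median of 5045 UMIs. All members but *Emilin1* lay between 0.596 and 4.91 CPM there, and *Emilin1* at 19.0 CPM. After every cell was thinned to 2000 UMIs, *Fbn1* had a UMI in 0.291% (0.172 to 0.459) of those cells, against 67.5% (56.1 to 77.6) of *Rgs5*-high and 2.19% (0.599 to 5.50) of *Ifitm5*-high cells at day 10. *Mfap4* had one in 74.3% (56.7 to 87.5) of *Chodl*-high cells of day 10, and in 8.27% (5.69 to 11.5) of *Postn*-high cells. For *Mfap5*, the thinned share in *Postn*-high cells was 24.5% (20.3 to 29.2) at day 10 and 46.5% (41.7 to 51.3) at day 14. The day 7 values come from another library, so they do not give the free RNA of day 10 or day 14. *Ptprc*-positive cells numbered 6 at day 10 and 173 at day 14, too few at day 10 for the same reading there. At day 14 those 173 cells held 50.7 CPM of *Mfap5* and 74.9 CPM of *Fbn1*, above several of the low values given here for the *Ifitm5*-high cells, and the part of free RNA in such low values was not tested.

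Each group was then set against all other *Ptprc* = 0 cells of its own library, and a member was called when it differed at least 2-fold, a log2 ratio of 1, on both days. These calls concern single libraries. *Igf1*-high cells had 6 of the 10 members higher, *Fbn1*, *Fbn2*, *Mfap2*, *Mfap4*, *Mfap5*, and *Fbln5*, and none lower, where 3.09% of 9178 genes were higher and 4.09% lower by the same rule. *Fbln5* stood at 2.87 (2.75 to 2.98) at day 10 and 2.29 (2.20 to 2.38) at day 14, *Fbn2* at 2.66 (2.58 to 2.74) and 2.50 (2.45 to 2.55), and *Mfap4* at 2.30 (2.20 to 2.41) and 2.36 (2.30 to 2.43). The median log2 ratio of the members was 1.71 and 1.52, beside 0.10 and 0.13 for all genes tested. *Igf1*-high cells of day 14 carried 785 CPM of hematopoietic markers against 14.1 CPM at day 10, and leaving out cells with over 1% of such UMIs moved no ratio out of its counting interval.

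*Acta2*-high cells had 4 members higher on both days, *Fbn1*, *Mfap5*, *Fbln1*, and *Fbln2*, and none lower (4.05% and 4.71% of all genes). *Mfap5* led at day 10 with 2.65 (2.58 to 2.72), followed by *Fbln2* with 2.34 (2.28 to 2.40), which stood at 1.60 (1.54 to 1.67) at day 14. *Postn*-high cells had 3 higher, *Mfap2*, *Mfap5*, and *Fbln2*, and none lower (2.84% and 4.04%). *Mfap5* in them was at 2.32 (2.24 to 2.40) and 1.94 (1.89 to 1.99). *Chodl*-high cells could be compared at day 10 only, where 7 members were higher, *Fbn1*, *Fbn2*, *Mfap2*, *Mfap4*, *Mfap5*, *Fbln1*, and *Fbln5*, and none lower (13.6% and 10.6%). *Mfap4* reached 4.45 (4.29 to 4.60) and *Fbln1* 3.00 (2.59 to 3.38) in these 37 cells, whose median was 7188 UMIs. *Fbn2* stood at 1.14 (0.74 to 1.51) and turned to -0.27 after thinning.

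*Ifitm5*-high cells had little of most members. All members but *Emilin1*, 9 in number, were at least 2-fold lower on both days and none higher, where 7.99% of all genes were lower and 1.88% higher. *Mfap5* stood at -6.39 (-8.67 to -4.85) at day 10 and -3.66 (-3.95 to -3.39) at day 14, and *Fbn1* at -3.69 (-4.19 to -3.24) and -3.23 (-3.49 to -2.98). *Emilin1*, at -0.89 and -0.75, stayed within 2-fold. *Cnmd*-high cells had 5 members lower, *Eln*, *Fbn2*, *Mfap5*, *Fbln1*, and *Fbln2*, and none higher (6.32% and 0.567%). There *Fbn1* was within 2-fold, -0.46 and -0.95, as was *Emilin1*, 0.41 and 0.48. Against each other, shared cells left out, the *Cnmd*-high cells had more *Fbn1* than the *Ifitm5*-high cells by 3.23 (2.77 to 3.73) and 2.24 (1.95 to 2.54), and more *Emilin1* by 1.24 and 1.19.

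*Rgs5*-high cells split the family. *Eln* and *Fbn1* were higher on both days and *Fbn2*, *Mfap4*, and *Emilin1* lower, 2 and 3 of 10, beside 6.55% and 7.93% of all genes. *Eln* stood at 1.30 (0.86 to 1.71) and 2.82 (2.60 to 3.04), and *Fbn1* at 2.42 (2.32 to 2.52) and 1.66 (1.57 to 1.75). *Emilin1* was at -3.06 (-3.50 to -2.65) and -1.83 (-2.06 to -1.61). *Fbn2* was at -1.22 and -1.90, and came within 2-fold at day 10, -0.58, without the *Acta2*-high cells. *Mfap4* was at least 20.9-fold lower at day 10, counting the 0 UMIs as 3. Since the *Acta2*-high and *Rgs5*-high groups share cells, they were also set against each other without the shared ones, 30 *Rgs5*-high against 317 *Acta2*-high cells at day 10 and 122 against 342 at day 14. In the *Rgs5*-high cells *Mfap5* was then lower, at a log2 ratio of -3.41 (-4.32 to -2.63) and -2.87 (-3.17 to -2.58) and *Fbln2* likewise at -2.21 (-2.70 to -1.76) and -3.19 (-3.59 to -2.81). *Fbn1* was higher by 1.16 (0.98 to 1.33) at day 10 and at 0.10 (-0.04 to 0.24) at day 14, an interval that includes 0. These *Rgs5*-high cells that were not *Acta2*-high held 5723 CPM of chondrocyte markers and 4038 CPM of osteoblast markers at day 14. That was more than the 1143 and 681 CPM of the cells high for both genes, and the part of this in their values was not tested.

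**Figure D2:**
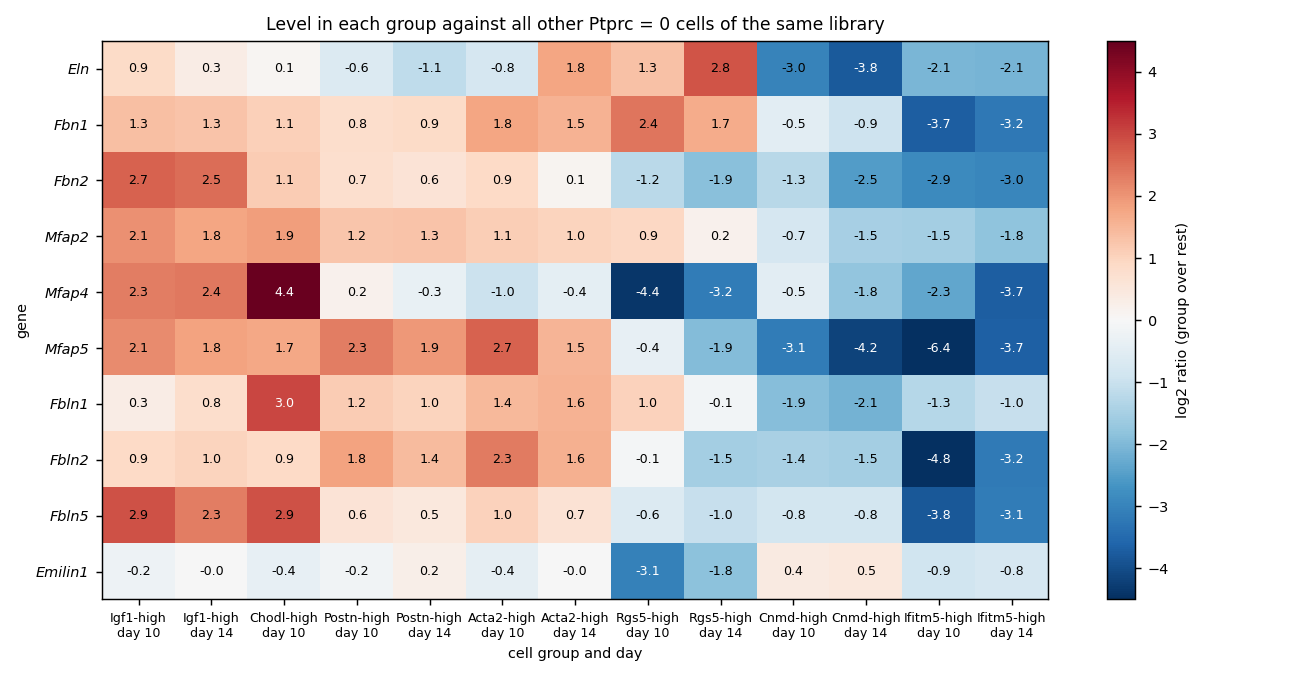
Log2 ratio of each gene (rows) in each group over all other *Ptprc* = 0 cells of the same library (columns, day 10 and day 14; red is higher in the group, blue lower, and the number is the ratio). *Igf1*-high and *Chodl*-high columns are red in nearly every row, *Ifitm5*-high columns are blue, and *Rgs5*-high columns hold both colors, with *Fbn1* higher and *Mfap4* and *Emilin1* lower.

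The shares of paralogs do not depend on the choice of comparison cells. Each mRNA gives at most 1 UMI in this 3′ assay, whatever its length, but genes may be captured unequally, so shares are compared between groups only. *Fbn2* made up 56.7% (54.8 to 58.6) of the fibrillin UMIs in *Igf1*-high cells at day 10 and 63.2% (62.0 to 64.3) at day 14. It was 36.0% and 42.0% in *Postn*-high cells, 25.7% and 25.6% in *Acta2*-high cells, and 4.68% (3.37 to 6.32) and 7.03% (5.65 to 8.62) in *Rgs5*-high cells. The intervals of these 4 groups did not overlap within either day. In *Ifitm5*-high cells *Fbn2* made up 50.6% (39.1 to 62.1) and 50.8% (44.5 to 57.0), from 79 and 260 fibrillin UMIs. The day 10 interval there overlapped that of the *Igf1*-high cells. *Mfap5* formed 54.0% and 61.2% of the *Mfap2* plus *Mfap5* UMIs in *Postn*-high cells and 60.1% and 59.6% in *Acta2*-high cells. In *Rgs5*-high cells it formed 20.3% and 19.6%, and in *Cnmd*-high cells 11.1% and 14.5%. Among the 3 fibulins, *Fbln2* accounted for 77.7% and 76.9% in *Postn*-high cells and 78.9% and 75.1% in *Acta2*-high cells. *Fbln5* took 48.5% (46.0 to 51.0) and 39.5% (37.8 to 41.1) in *Igf1*-high cells and 39.9% (33.1 to 47.0) in the *Chodl*-high cells of day 10, where *Fbln1* took 27.6% (21.6 to 34.3). That *Fbln1* share was not particular to them. At day 10 it was 26.3% (20.2 to 33.1) in *Rgs5*-high cells and 58.2% (44.1 to 71.3) in *Ifitm5*-high cells, the latter from 55 fibulin UMIs.

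**Figure D3:**
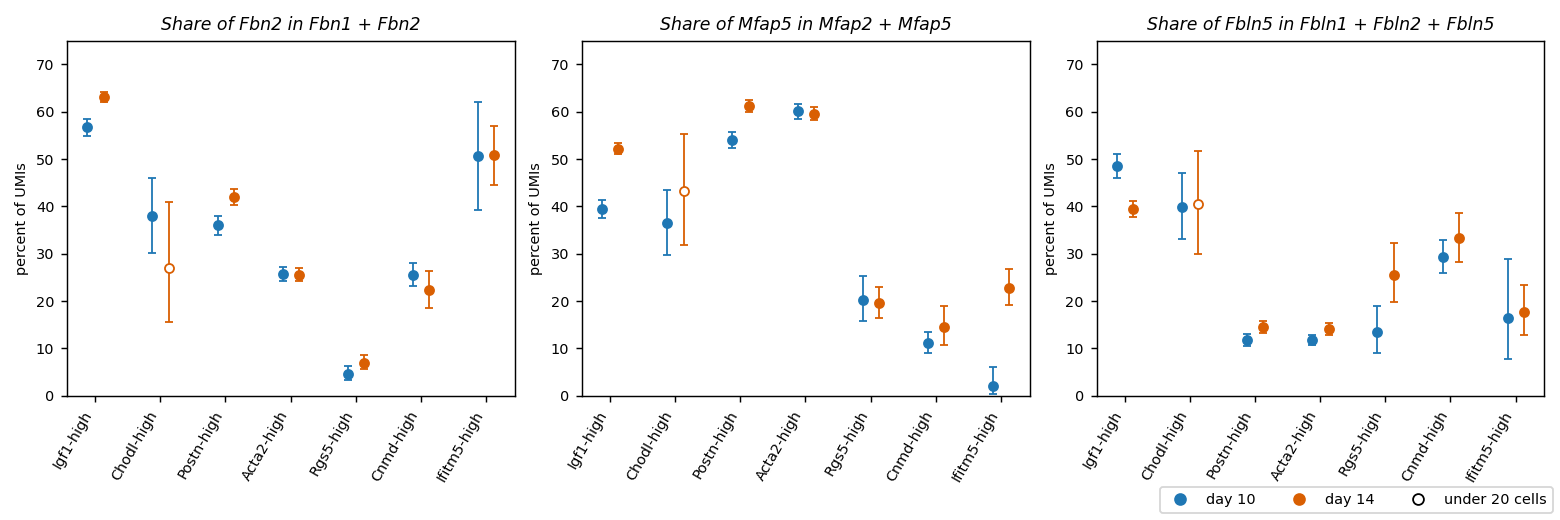
Share of 1 paralog in the UMIs of its family (percent, *y* axis) by group at day 10 and day 14, with Clopper-Pearson 95% intervals; open circles are under 20 cells. *Fbn2* leads in *Igf1*-high cells (56.7% and 63.2%), with *Ifitm5*-high cells next and overlapping them at day 10, and is least in *Rgs5*-high cells. *Mfap5* is most in *Postn*-high and *Acta2*-high cells, and *Fbln5* in *Igf1*-high and *Chodl*-high cells.

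At day 7 the 13 *Postn*-high cells held UMIs of all 10 members. *Mfap4* stood at 410.3 CPM (336 to 497) in them and *Fbln5* at 195 CPM (145 to 258), above the intervals of the *Postn*-high cells of both later days. *Mfap5*, at 102 CPM (66.4 to 149), lay below both. Without the cell with the most UMIs of the gene, an alternative added after seeing the data, these stayed above or below, at 232 CPM (175 to 302) for *Mfap4*, 154 CPM (108 to 213) for *Fbln5*, and 55.4 CPM (29.5 to 94.8) for *Mfap5*. For *Mfap4*, 50 of the 105 UMIs were in that cell, which was also *Chodl*-high. Another 40 were in 1 other cell, the one with 8 *Eln* UMIs, and leaving out both was not tried. Only 6 of the 13 cells had a UMI of *Mfap4*. Its high level at day 7 thus rests on those cells and does not describe the group as a whole. *Fbln1*, at 102 CPM (66.4 to 149), and *Eln* were above both days only with the top cell of the gene. Without it *Fbln1* was at 63.2 CPM (35.4 to 104) and *Eln* at 8.32 CPM (1.01 to 30.0), from 2 UMIs. *Fbln2*, at 332 CPM (265 to 411), overlapped both days and was at 245 CPM (186 to 316) without its top cell. The 4 *Igf1*-high cells of day 7 held 1578 CPM of *Fbn1* from 54 UMIs, of which 1 cell had 50, and the other 3 gave 206 CPM (56.2 to 528). Their *Fbn2* was 906 CPM from 31 UMIs, 20 of them in 1 cell. In the 15 *Ifitm5*-high cells *Eln*, *Mfap4*, and *Mfap5* had 0 UMIs, as *Fbn1* did, and *Emilin1* was at 171 CPM (132 to 218).

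Between day 10 and day 14 most members held their level inside a group. Of 60 pairs of a member and a group, 5 were at least 2-fold higher at day 14, 5 were at least 2-fold lower, and 50 lay within 2-fold. These are differences between 2 libraries, and day and library cannot be told apart. Of all genes, 0.915% were higher and 1.98% lower in *Postn*-high cells, 1.01% and 1.55% in *Igf1*-high, 0.992% and 0.828% in *Acta2*-high, 1.24% and 1.33% in *Cnmd*-high, 1.70% and 1.57% in *Ifitm5*-high, and 5.26% and 2.46% in *Rgs5*-high cells. *Mfap5* was higher in *Postn*-high cells by 1.01 (0.93 to 1.10) and in *Ifitm5*-high cells by 4.05 (2.46 to 6.35), the latter at 0.37 after thinning to 2000 UMIs per cell. *Fbln2* was also higher in *Ifitm5*-high cells, by 1.85 (1.04 to 2.77), though from 14 UMIs at day 10. In *Igf1*-high cells *Mfap5* stood just inside the limit at 0.93 (0.83 to 1.03), and over all *Ptprc* = 0 cells it was higher by 1.29 (1.25 to 1.33), where 0.349% of all genes were. *Acta2*-high cells stood at 0.41 (0.33 to 0.49). In the cells high for both *Acta2* and *Rgs5* it stood at -2.40 (-3.38 to -1.52), but 1 cell of day 10 held 37 of the 48 UMIs there, and without it day 10 had 15.1 CPM (7.52 to 27.0), which overlaps the 12.1 CPM (6.64 to 20.4) of day 14.

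*Eln* was called in opposite directions. It was higher at day 14 in *Acta2*-high cells by 1.77 (1.37 to 2.18), and lower in *Postn*-high cells, at -1.12 (-1.74 to -0.52), and in *Igf1*-high cells, at -1.11 (-1.50 to -0.72). *Acta2*-high cells that were not *Rgs5*-high showed 1.55 (1.02 to 2.10) and those that were *Rgs5*-high 1.59 (0.98 to 2.24). *Cnmd*-high cells were called lower, -1.46 (-3.45 to 0.09), on 23 and 4 UMIs and with an interval that includes 0. Thinning turned the *Postn*-high value to 0.95 and the *Cnmd*-high value to 1.20, on few UMIs, since 0.800% (0.165 to 2.32) of the thinned *Postn*-high cells of day 10 had one. Leaving out cells with at least 3 UMIs and 2 per 10000 of *Eln* turned the *Igf1*-high value to 0.69 and brought the *Acta2*-high value to 0.71. In *Rgs5*-high cells *Fbln1* was lower, at -1.42 (-2.04 to -0.80), and *Fbln2* at -1.24 (-1.63 to -0.85), and *Mfap4* was higher by 1.60 when the 0 UMIs of day 10 count as 3, a value that thinning turned to -1.45.

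*Eln* differed from the other members in how few cells held it. At day 10 it had 2031 UMIs, and the 65 cells richest in it, 1% of the *Ptprc* = 0 cells, held 71.8% of them. At day 14 it had 1796 UMIs, with 61.0% in 96 cells. Only 27 and 59 cells held the upper 50% of its UMIs, and 1 cell of day 10 had 145. For the other 9 members the top 1% of cells held from 3.98% (*Emilin1*) to 31.0% (*Mfap4*) at day 10, and from 5.97% to 30.7% for the same genes at day 14. *Fbln1*, with a similar number of 2562 and 2828 UMIs, had 17.9% and 17.1% in its top 1%.

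**Figure D4:**
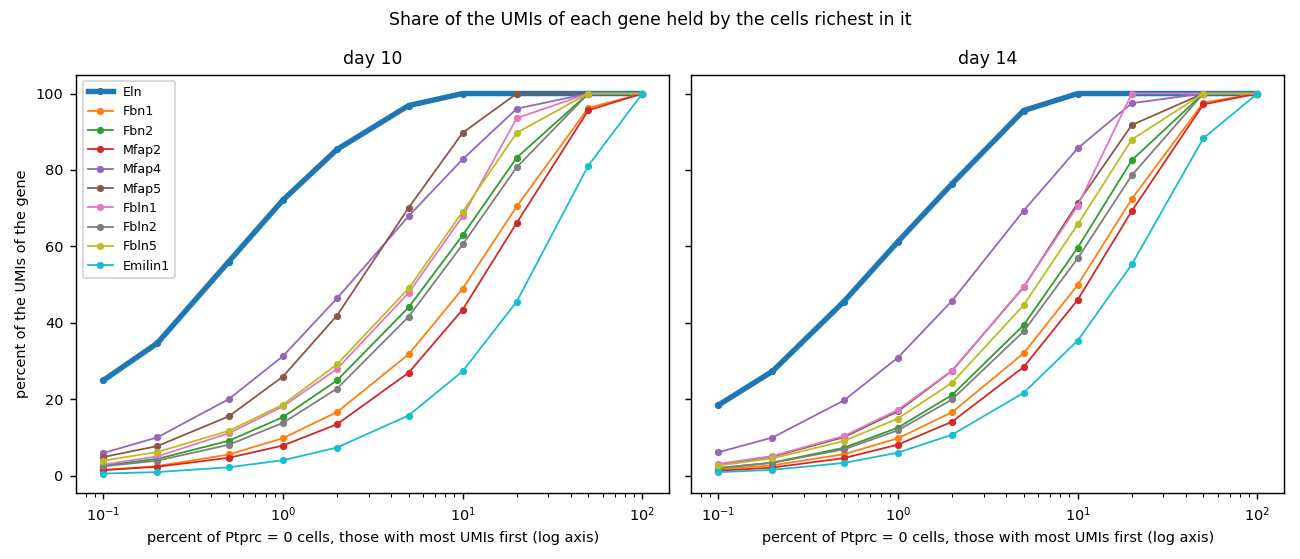
Cumulative share of the UMIs of each gene (percent, *y* axis) held by the cells with the most UMIs of it (percent of *Ptprc* = 0 cells, log *x* axis), at day 10 and day 14. The *Eln* curve, drawn thick, lies above all others, with 71.8% and 61.0% of its UMIs in 1% of the cells, and *Emilin1* is the flattest.

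Cells with at least 3 UMIs of *Eln* and 2 per 10000, a limit chosen after its values were seen, are called *Eln*-rich here. They numbered 112 at day 10, with 82.5% of its UMIs, 134 at day 14, with 67.8%, and 1 at day 7. High for none of the 7 genes were 85 of them (75.9%) at day 10 and 96 (71.6%) at day 14, close to the 74.0% and 77.7% of all *Ptprc* = 0 cells, and cells high for none held 86.1% and 73.3% of the *Eln* UMIs. *Acta2*-high cells were 7 of the *Eln*-rich cells (6.25%) at day 10, where they were 5.60% of all cells, and 22 (16.4%) at day 14, where they were 4.57%. *Rgs5*-high cells were 4 (3.57%, beside 1.24% of all cells) and 15 (11.2%, beside 2.29%). *Igf1*-high cells were 12 and 9 of them. The limit was set on *Eln*, so only the other genes are described next.

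*Eln*-rich cells had more of 7 other members by at least 2-fold on both days, *Fbn1*, *Mfap2*, *Mfap4*, *Mfap5*, *Fbln1*, *Fbln2*, and *Fbln5*, and none lower, where 3.64% of 9177 genes were higher and 2.15% lower by the same rule. *Mfap4* stood at 1038 CPM in them and 45.0 CPM in the other cells at day 10, a log2 ratio of 4.53 (4.44 to 4.61), and at 455 and 68.2 CPM at day 14, 2.74 (2.63 to 2.84). *Fbln1* followed with 3.62 (3.45 to 3.79) and 2.40 (2.16 to 2.64), then *Fbln5* with 2.82 (2.65 to 2.99) and 2.23 (2.07 to 2.39). *Fbn2* was within 2-fold, 0.32 (0.07 to 0.57) and 0.47 (0.30 to 0.64), and *Emilin1* was the only member lower, -0.51 (-0.67 to -0.35) and -0.49 (-0.66 to -0.32), also within 2-fold. *Fbn2* was thus 13.1% and 21.6% of their fibrillin UMIs.

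Of the 12 genes that led the *Eln*-rich cells on each day, by a rule applied after the cells were defined, 4 were shared, *Mfap4*, *Col8a1* (a short-chain collagen), *Ccn3*, and *Prss23*. Those of day 10 also included *Sfrp4* (a secreted Wnt antagonist), *Cilp2*, and *Ptn*, the last with 4419 against 332 CPM. At day 14 *Myh11* (smooth muscle myosin) and *Rgs5* led, with the basement membrane collagens *Col4a1* and *Col4a2*. *Rgs5* was at 335 CPM in the *Eln*-rich cells of day 10 and 1154 CPM in those of day 14, *Acta2* at 513 and 1449 CPM, and *Myh11* at 47.2 and 108 CPM. *Ptn* had 4419 and 1457 CPM and *Tnmd*, a tendon gene, 425 and 198 CPM. *Angptl7*, another gene of the tendon list, was high on both days, 5.70 (5.37 to 6.01) and 5.67 (5.32 to 6.01). Over whole lists, contractile markers summed to 1185 CPM in the *Eln*-rich cells of day 10 and 3312 CPM in those of day 14 (547 and 574 CPM in the other cells). Pericyte markers summed to 487 and 1369 CPM (397 and 364 CPM), and fibroblastic markers to 25497 and 18086 CPM (9882 and 10839 CPM). Tendon markers summed to 682 and 405 CPM (183 and 233 CPM), and endothelial markers to 3.87 and 8.41 CPM (2.95 and 3.80 CPM). *Cspg4* of the pericyte list was lower, at -1.95 and -1.47, unlike the rest of that list. *Mkx* of the tendon list was at 0.50 (-0.26 to 1.16) and 0.38 (-0.35 to 1.03). *Col2a1*, the main collagen of cartilage, was at -2.78 (-2.82 to -2.74) and -1.14 (-1.16 to -1.11), and *Ibsp*, a bone matrix gene, at -3.31 (-3.38 to -3.24) and -2.11 (-2.15 to -2.07). *Bglap*, another bone gene, was at 0.04 (-0.13 to 0.20) at day 10 and -2.88 (-3.23 to -2.55) at day 14.

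**Figure D5:**
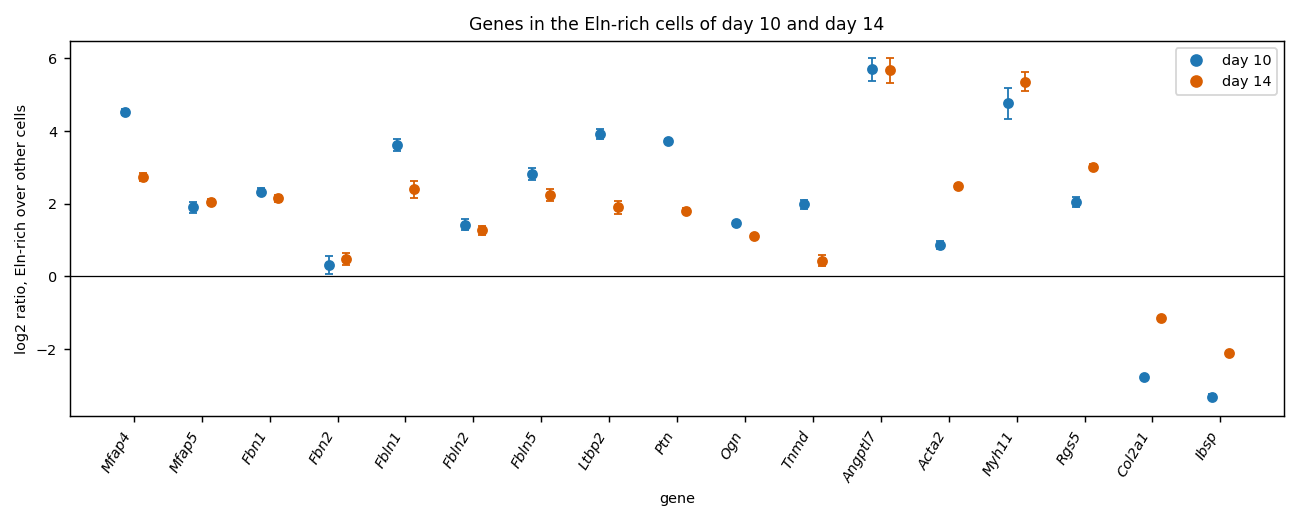
Log2 ratio of selected members, pathway genes, and fixed markers in *Eln*-rich cells over the other *Ptprc* = 0 cells at day 10 and day 14 (*y* axis; bars are exact 95% intervals of counting error). *Mfap4*, *Ltbp2*, *Ptn*, and *Tnmd* sit higher at day 10, *Acta2* and *Rgs5* higher at day 14, and *Col2a1* and *Ibsp* lie below 0 on both days.

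Genes that work with the members were taken as 6 lists from background knowledge of the pathway. Of the 5 lysyl oxidases, which crosslink elastin and collagen, *Loxl1* was at least 2-fold higher in *Postn*-high, *Igf1*-high, and *Acta2*-high cells on both days, by 1.46 and 1.30, 1.26 and 1.24, and 1.72 and 1.18, and in *Chodl*-high cells by 1.26 at day 10. *Loxl4* was lower in each of these, down to -5.16 in *Postn*-high cells of day 14. *Cnmd*-high cells had 3 of 5 lower (*Lox*, *Loxl1*, *Loxl4*) and *Ifitm5*-high cells 3 of 5 (*Loxl1*, *Loxl2*, *Loxl3*), and neither had any higher. *Rgs5*-high cells had *Lox* and *Loxl4* lower.

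The 4 latent TGF-beta binding proteins are relatives of the fibrillins that tether the growth factor to microfibrils. *Ltbp1* was higher in *Postn*-high cells, 1.37 and 1.38, and *Ltbp1* and *Ltbp3* in *Igf1*-high cells. *Acta2*-high cells had none called in either direction. In *Rgs5*-high cells *Ltbp4* was higher, 1.50 and 2.18, and *Ltbp1* and *Ltbp2* lower, so this list split there as the members did. *Ltbp1* and *Ltbp2* were lower in *Cnmd*-high cells and *Ltbp2* and *Ltbp4* in *Ifitm5*-high cells. *Eln*-rich cells had *Ltbp2* at 3.92 (3.78 to 4.06) at day 10 and 1.91 (1.73 to 2.08) at day 14.

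Of 12 other fibulins and elastic fiber glycoproteins, 5 had enough UMIs on both days. *Hmcn1*, a giant matrix fibulin, was higher in *Postn*-high and *Igf1*-high cells, the latter by 2.66 and 2.52, and lower in *Cnmd*-high, *Ifitm5*-high, and *Rgs5*-high cells. *Fbln7* was opposite to *Hmcn1* in *Cnmd*-high cells, higher by 1.08 and 1.40, and in *Postn*-high cells, where it was lower. Like *Hmcn1* it was lower in *Rgs5*-high cells and higher in the *Chodl*-high cells of day 10, and it was also lower in *Acta2*-high cells. Among the 8 ADAMTS and ADAMTS-like genes, of which 5 were tested on both days, *Adamtsl4* was higher in *Postn*-high and *Igf1*-high cells and *Adamtsl1* in *Igf1*-high cells, and both were lower in *Ifitm5*-high cells.

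The last lists held matrix and receptor partners and enzymes that can cut elastin. *Vcan*, a proteoglycan that binds microfibrils, and *Itga5* were higher in *Postn*-high and *Acta2*-high cells, 2 of 9 tested in each. In *Rgs5*-high cells the integrin genes *Itgav* and *Itgb1* were higher and *Fn1* and *Dcn* lower. Of 4 enzymes tested, *Mmp2*, *Mmp14*, and *Ctsk* were higher in *Postn*-high cells and *Mmp2* and *Ctsk* in *Igf1*-high cells, *Mmp9* was lower in both, and *Mmp2* was lower in *Rgs5*-high cells, -2.10 and -1.48.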

How the data were processed

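Single-cell RNA was captured in 3 droplet libraries, 1 per day, so replicates were absent and no p-value was computed. The authors aligned the reads to mm10 and collapsed UMIs with Cell Ranger, and the deposited values are raw UMI counts per gene and cell. The version is given as 3.0 in the submitters' processing notes and 3.1.0 in the file headers, the study's methods name another, and the labels and methods name different 3′ kits.

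Cells were kept with 500 to 5000 genes, at most 10% mitochondrial UMIs, at most 5% hemoglobin UMIs, and 0 *Ptprc* UMIs. Doublets were not removed. The level that set a group was the 95th percentile for *Postn*, *Igf1*, *Acta2*, and *Cnmd*, and the minimum of 2 UMIs per 10000 for *Chodl*, *Ifitm5*, and *Rgs5*. Levels are CPM of UMIs summed over a group, with exact Poisson 95% intervals. Ratios have exact binomial and shares Clopper-Pearson intervals, all for counting error only. A count of 0 was read as allowing 3. Genes were tested at 5 CPM or more over the *Ptprc* = 0 cells (9359 at day 10, 9440 at day 14, 9178 on both), and a 2-fold difference was called. Shares of cells with a UMI used cells thinned to 2000 UMIs.

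The members, the groups, and the lists were chosen with earlier results of these data known. All members and the 7 group genes are named, as are list genes called on both days, at most 3 per list and group, and the 3 genes most like each member, except that for *Eln* and *Fbln1* some are not reported here. Genes of the *Eln*-rich cells were named after their values were seen. On simulated counts for *Postn*-high cells at day 10 (9359 genes, 200 changed 4-fold), 100% were recovered and 95.3% of intervals held the true ratio. These were Poisson draws of summed counts, which is what the intervals assume. The simulation therefore checks the computation only. It cannot show how the intervals fare where few cells hold most UMIs of a gene. Positions come from GENCODE M21 (GRCm38). Python 3.11.15, numpy 2.4.6, scipy 1.17.1, and pandas 2.3.3 were used.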

Additional observations from a re-analysis of the deposited data

Results flagged for a closer look

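In 3 cases the log2 ratio of a member in a group over the rest of its library changed sign between day 10 and day 14. Only cases where neither counting interval spanned both signs are included. The difference between the days was not tested, since each day is 1 library. *Mfap4* in *Postn*-high cells had a log2 ratio of 0.18 at day 10 and -0.33 at day 14. *Emilin1* in *Postn*-high cells had -0.17 and 0.25. *Eln* in *Acta2*-high cells had -0.76 and 1.78, and the day 14 value was 0.92 when *Rgs5*-high cells were left out. Within *Postn*-high cells the levels of *Mfap4* and *Emilin1* themselves differed by -0.12 and -0.17 (log2, day 14 over day 10), while *Eln* in *Acta2*-high cells differed by 1.77.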

How the results depend on the processing

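The 16 counts of members or pairs past the 2-fold limit were recomputed under 10 alternatives, 8 planned and 2 added after seeing the data (*Acta2*-high and *Rgs5*-high cells apart, and without *Eln*-rich cells). Of the 160 values, 155 stayed within 1.5 times and 5 did not. With the 90th percentile, the members higher in *Postn*-high cells were 5 and the pairs lower at day 14 were 3. With all deposited *Ptprc* = 0 cells those pairs were 2, and without *Eln*-rich cells 3. With cells high for exactly 1 gene, 1 member was lower in the *Chodl*-high cells of day 10. *Eln* reversed most often. Over the rest, in *Postn*-high cells of day 14, it went to 0.29 with the 90th percentile and 0.10 without *Eln*-rich cells. Its day 14 over day 10 value in *Cnmd*-high cells went to 0.17 with the 90th percentile, 0.09 with all deposited cells, and 1.20 after thinning. In *Postn*-high cells it went to 0.95 after thinning, and in *Igf1*-high cells to 0.69 without *Eln*-rich cells. *Mfap4* in *Rgs5*-high cells, day 14 over day 10, went to -1.45 after thinning and -0.38 without the top 1% of cells per gene. *Fbn2* in *Chodl*-high cells over the rest went to -0.27 after thinning. The cause was not tested in these cases. Of 82 called ratios over the rest, each alternative lost between 0 and 8. Depth limits *Eln*, with 4 to 243 UMIs per group of at least 20 cells, and *Mfap5* in *Ifitm5*-high cells of day 10, with 3. No paired analysis was possible because each day has 1 library and the days share no replicate beyond it.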

Other observations

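The genes whose levels ran most like each member were looked for over 13 profiles, the groups with at least 20 cells at day 10 and day 14, by Pearson's r of log2(CPM + 1) among 2301 genes with at least 100 CPM in a profile. The profiles share cells and libraries, so r is a description only. *Mfap4* was closest to *Abi3bp* (0.97), *Cpxm2* (0.97), and *Ltbp3* (0.96). *Mfap5* was closest to *Aspn* (0.96), which encodes the matrix proteoglycan asporin, then *Antxr1* (0.96) and *Palld* (0.95). *Fbn1* went with *Pxdn* (0.97), *Nid1* (0.96), a gene of basement membranes, and *Capns1* (0.96). *Fbn2* and *Fbln5* had *Gas6* in common (0.95 and 0.97), with *Cltb* and *Rab34* beside *Fbn2* and *Egfr* and *Sntb2* beside *Fbln5*. *Emilin1* was closest to *Fscn1* (0.98), *Clec11a* (0.96), and *Olfml3* (0.94). *Fbln2* had *Pdia3*, *Cnn3*, and *Tnfrsf12a*, *Mfap2* had *Lamp2*, *Cmtm3*, and *Pbxip1*, *Fbln1* had *Basp1* and *Trappc4*, and *Eln* had *Pik3r1* and *Arl6ip1*, with r between 0.92 and 0.97.

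Between members, r was 0.94 for *Mfap2* and *Mfap5* and 0.93 for *Fbn2* and *Fbln5*, and -0.56 for *Eln* and *Emilin1*. For the members whose promoters are shown, it was -0.20 for *Fbn1* and *Emilin1* and 0.85 for *Fbln2* and *Fbln5*. The latter thus mostly rose and fell together over the profiles. Cells of the *Igf1*-high group had UMIs of a median of 7 of the 10 members on both days, those of the *Ifitm5*-high group of 2.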
